A study of Homo sapiens with 6 samples.

Results

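Cytosolic and mitochondrial chaperones are described here as 41 named genes, taken by symbol from a table of 58735 gene entries: the HSP70 and HSP110 proteins, HSP90 with its co-chaperones, J proteins, small heat shock proteins, BAG proteins, heat shock factors, the mitochondrial chaperones and the 8 subunits of the chaperonin CCT. They filled 42 entries, because HSPA14 is listed under both ENSG00000187522 and ENSG00000284024. RNA was sequenced from 6 libraries of Hep-G2, an established human liver cancer cell line. The 3 sh-NC libraries carried a control short hairpin delivered by lentivirus and are given as WT with the treatment shcontrol. The 3 sh-CLGN libraries carried a hairpin against CLGN, a chaperone of the endoplasmic reticulum (ER), and are given as a knockdown, while all 6 have the batch tag 0DAY. The study selected transduced cells with puromycin and used 1 hairpin per group, so loss of CLGN and other effects of that hairpin cannot be told apart. Nothing states that the libraries of a group came from separate cultures, so p-values measure only the spread between these libraries.

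HSP70 proteins hold exposed hydrophobic stretches of unfolded proteins once their ATP is hydrolysed, a step that J proteins stimulate, and let go when exchange factors such as the HSP110 proteins replace the nucleotide. HSP90 acts later, on nearly folded clients such as kinases and steroid receptors, with co-chaperones that deliver clients and set its cycle. CCT is a ring of different subunits that folds actin and tubulin, and mitochondria hold their own HSP70, HSP60 and HSP90. The heat shock factor HSF1 drives many of these genes under proteotoxic stress through heat shock elements, which are inverted repeats of the word GAA in their promoters.

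Libraries held 14955816 to 16244639 reads assigned to genes, and a member had between 92 and 26203 reads in a library. CLGN had 24.1, 21.0 and 26.1 FPKM in sh-NC 1 to 3 and 9.48, 8.88 and 8.60 FPKM in sh-CLGN 1 to 3, so 37.8% of its sh-NC level was left (log2 fold change -1.31, SE 0.081, limma adjusted p = 8.35e-06). A log2 fold change is the sh-CLGN minus the sh-NC mean of log2(FPKM + 1), where FPKM is a read level scaled for gene length and library size. The 10 hepatocyte markers summed to 7086 to 7318 FPKM in sh-NC and 7178 to 7642 FPKM in sh-CLGN. The 13 fibroblast markers summed to 64.3 to 69.2 FPKM against 223 to 225 FPKM, and all 8 that were tested were higher, while THY1, DCN, FAP and ACTA2 had at most 5 reads in every library and FAP had 0. COL1A1, COL3A1, LUM and TAGLN were under 1 FPKM in every sh-NC library. These genes passed the filter of 1 FPKM in 3 libraries through sh-CLGN alone, so they could only be tested as higher. Of 4 blood cell markers 2 were tested and none of these was higher, while PTPRC and CD68, not tested, had at most 5 reads. LYZ (mean 72.9 FPKM in sh-NC and 64.0 FPKM in sh-CLGN) and CD14 (1.35 and 0.524 FPKM) were lower. CD14 passed the filter through its sh-NC libraries alone, so it could only be tested as lower. Of 4 endothelial markers only 1, PECAM1, was tested, and VWF and KDR had at most 5 reads. PECAM1 was lower (3.21 and 2.46 FPKM), and CDH5 was not tested (0.287 and 0.0696 FPKM). The part of these shifts in the results was not tested, and in bulk RNA fewer cells of a type and less RNA per cell cannot be told apart.

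Several genes of the cytosolic HSP70 machinery were higher in sh-CLGN cells, among them HSPA8 (1.81-fold in mean FPKM, n = 3), HSPA1A (1.97-fold), HSPH1 (2.09-fold) and DNAJA1 (1.74-fold). The mitochondrial HSP90 gene TRAP1 was lower, at 42.9% of sh-NC, as were the chaperonin gene CCT7 (55.8%), the J protein gene DNAJA3 (61.1%), the HSP90 co-chaperone genes CDC37 (64.1%) and PTGES3 (69.5%), HSF1 (65.5%) and BAG3 (76.3%). At a limma adjusted p of at most 0.05, 11 of the 42 entries were higher (26.2%) and 17 were lower (40.5%), beside 26.7% and 39.0% of all 13074 tested genes, so on this scale the shares were near the background. The remaining 14 entries did not pass. The median log2 fold change was -0.08 over the members and -0.08 over all tested genes. Groups did not overlap for 33 members (78.6%, 13 higher and 20 lower), beside 70.2% of all tested genes. Only HSPH1 (higher) and TRAP1 (lower) also differed by 1 or more on the log2 scale in addition to passing adjusted p, which 6.28% of all tested genes did. TRAP1 stayed lower but was under that limit after GC correction (-0.92), quantile normalization (-0.95) and by read totals (-0.97), so which members passed both limits depended on the scaling.

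The balance of higher and lower members depended on how libraries were scaled. After rescaling to TPM, which gives every library the same total, 17 members were higher (40.5%) and 12 lower (28.6%), beside 32.8% and 30.0% of all tested genes. After scaling by read totals 20 were higher (47.6%) and 10 lower (23.8%), beside 37.9% and 26.2%. After quantile normalization 20 were higher (47.6%) and 9 lower (21.4%), beside 30.2% and 32.5%, so there the members' shares were not near the background. These scalings shifted the log2 fold changes of single genes by a median of 0.12, 0.17 and 0.06 over all tested genes. Over the members the median shift per gene was 0.13, 0.19 and 0.27. Of the 11 higher calls 9 were kept under all 15 alternatives, the exceptions being HSPA4 and HSPA13. Of the 17 lower calls 7 were kept under all 15: TRAP1, DNAJA3, CDC37, PTGES3, BAG3, HSF1 and CCT7. All 42 entries passed the filter of 1 FPKM in 3 libraries, HSPA4L among them through its sh-NC libraries. The members were mostly abundant transcripts, with a median of 31.8 FPKM beside 6.03 FPKM over all tested genes, and 38 of 42 lay above the latter.

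**Figure D1:**
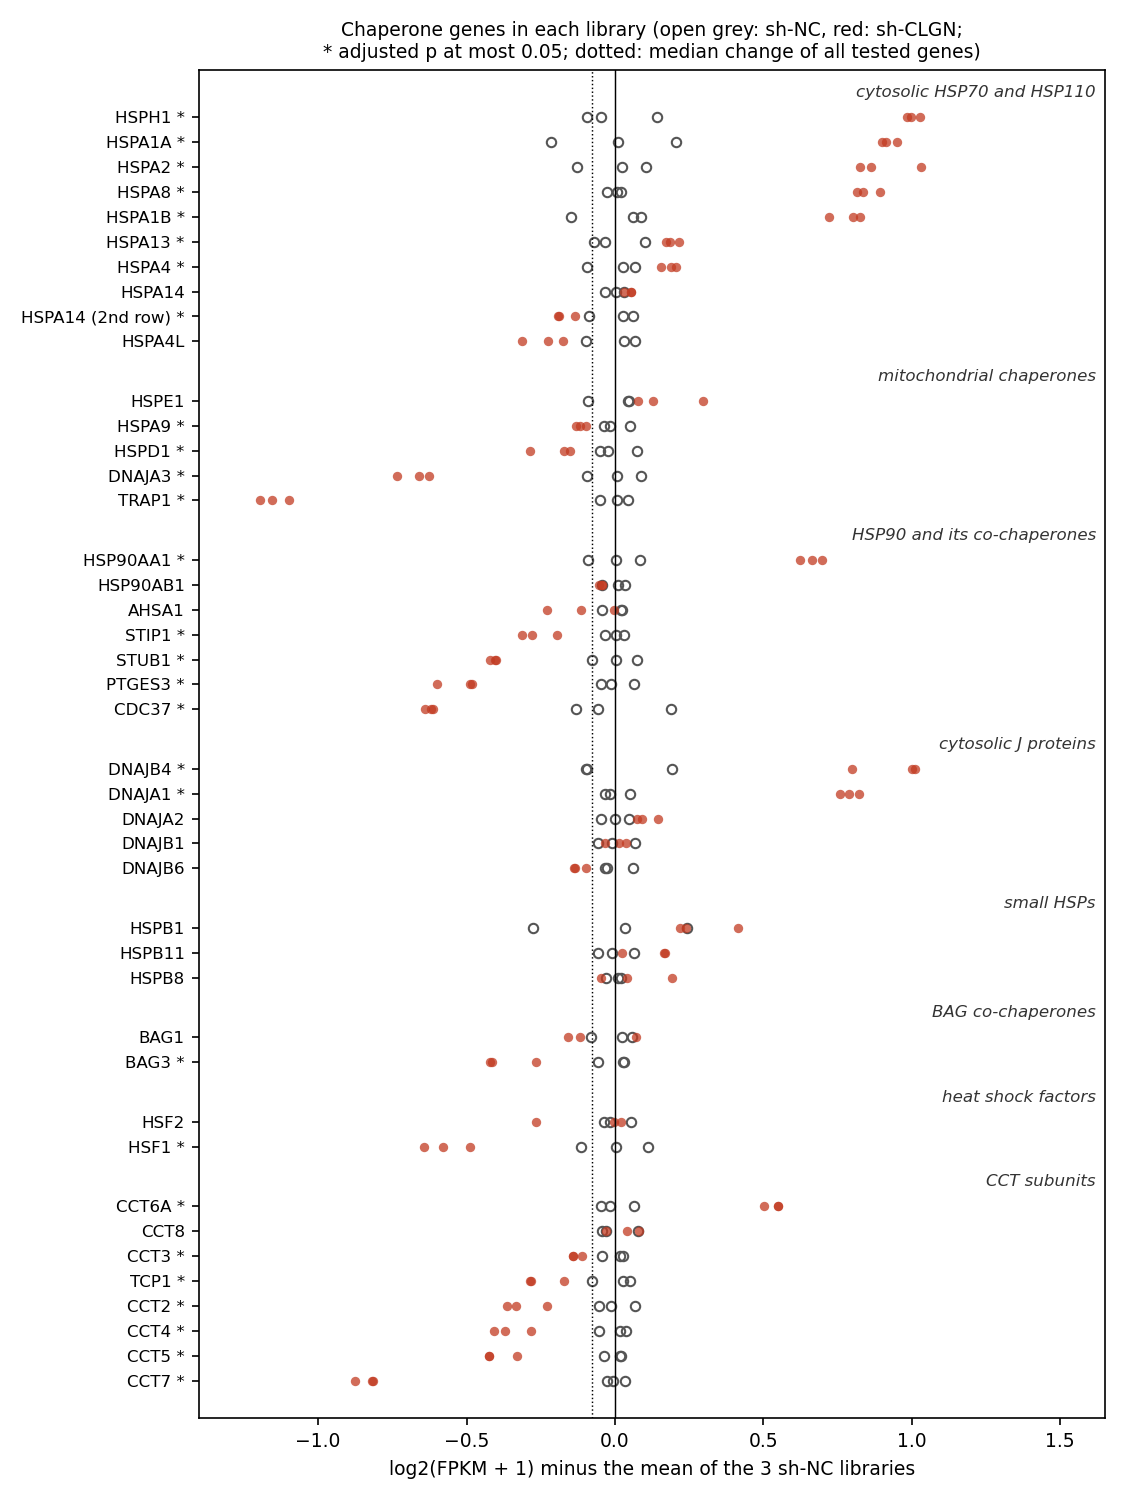
Each point is 1 library of 1 chaperone gene: log2(FPKM + 1) minus the mean of the 3 sh-NC libraries, with sh-NC as open grey and sh-CLGN as red circles, genes grouped by role, and stars for an adjusted p of at most 0.05. The sh-CLGN points of HSPH1, HSPA1A, HSPA2, HSPA8 and HSPA1B lie to the right of every sh-NC point and those of TRAP1, DNAJA3 and CCT7 to the left. The signs of HSPA9, HSPD1, STIP1, TCP1, CCT3 and the HSPA14 entry ENSG00000284024, all starred as lower, flip under at least 1 other scaling.

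Of the 9 HSP70, HSP110 and J protein genes that rose, 4 carry a heat shock element in their promoter window, and these 4 windows are shown. RefSeq windows of 300 bases on GRCh38.p14, from 250 bases before to 50 bases after a gene's start, were found for 36 of the 41 members. The capitals mark a short element, GAANNTTC, which reads the same on both strands, or a longer one of 3 units, GAANNTTCNNGAA or its reverse complement TTCNNGAANNTTC, which contains the short one. HSPA8 (chr11:123062087-123062386, minus strand), HSPA1A (chr6:31815293-31815592, plus strand), HSPA1B (chr6:31827488-31827787, plus strand) and DNAJA1 (chr9:33025023-33025322, plus strand) rose. DNAJB6 (chr7:157336754-157337053, plus strand), which did not pass the test, is shown beside them because it also carries the longer element. The windows of TCP1, HSPB1 and HSPB8, which hold the short element, are not printed. All are printed 5′ to 3′.
HSPA8: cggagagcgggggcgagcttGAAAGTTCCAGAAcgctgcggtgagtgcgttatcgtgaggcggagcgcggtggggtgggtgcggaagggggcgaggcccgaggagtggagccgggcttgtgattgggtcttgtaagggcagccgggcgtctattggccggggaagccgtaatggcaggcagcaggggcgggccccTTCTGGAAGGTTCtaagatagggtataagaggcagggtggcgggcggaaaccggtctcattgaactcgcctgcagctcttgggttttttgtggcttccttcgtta
HSPA1A: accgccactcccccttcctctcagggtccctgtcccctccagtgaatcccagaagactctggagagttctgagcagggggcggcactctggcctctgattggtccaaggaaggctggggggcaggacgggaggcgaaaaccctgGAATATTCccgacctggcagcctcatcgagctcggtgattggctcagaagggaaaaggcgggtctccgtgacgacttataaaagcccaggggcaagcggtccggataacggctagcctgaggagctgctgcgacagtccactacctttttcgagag
HSPA1B: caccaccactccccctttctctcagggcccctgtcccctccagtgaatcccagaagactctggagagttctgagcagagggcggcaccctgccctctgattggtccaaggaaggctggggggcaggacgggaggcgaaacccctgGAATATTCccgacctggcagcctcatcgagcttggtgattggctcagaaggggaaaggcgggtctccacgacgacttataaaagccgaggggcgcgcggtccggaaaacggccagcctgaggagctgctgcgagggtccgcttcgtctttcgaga
DNAJA1: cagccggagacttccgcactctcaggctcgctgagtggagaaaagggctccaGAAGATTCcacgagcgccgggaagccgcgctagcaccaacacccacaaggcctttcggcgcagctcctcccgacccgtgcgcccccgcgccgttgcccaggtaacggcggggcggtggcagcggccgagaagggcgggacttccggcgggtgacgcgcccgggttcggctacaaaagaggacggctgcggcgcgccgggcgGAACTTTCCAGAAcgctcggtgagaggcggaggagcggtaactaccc
DNAJB6: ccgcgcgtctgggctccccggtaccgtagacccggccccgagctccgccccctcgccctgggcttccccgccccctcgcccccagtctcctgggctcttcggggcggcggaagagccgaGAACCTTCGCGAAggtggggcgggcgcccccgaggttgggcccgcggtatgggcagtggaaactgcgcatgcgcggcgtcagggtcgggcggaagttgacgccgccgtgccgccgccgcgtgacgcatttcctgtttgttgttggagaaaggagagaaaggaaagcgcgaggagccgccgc

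The short element was present in 8 of 36 member promoters (22.2%), 404 of 9073 promoters of tested genes (4.45%) and 6.87% of all 27305 promoters. The longer one was present in 3 of 36 (8.33%), in 0.309% of those of tested genes and in 0.487% of all. HSPA8 held the longer element in 2 places, and DNAJA1 and DNAJB6 held it once. Of the 8 genes with the short element, HSPA1A, HSPA1B, HSPA8 and DNAJA1 rose, TCP1 fell, and HSPB1, HSPB8 and DNAJB6 did not pass. Of the 28 without it, 6 rose, 13 fell and 9 did not pass. Of all tested genes 26.7% were higher and 39.0% lower. HSPH1, HSPA2, HSPA4, HSPA13, HSP90AA1 and DNAJB4 rose without the element in this window. The windows of HSP90AA1 and DNAJB1, both counted as without the element, cover only a start at or near the outer end of the gene. A match is a description of letters and does not show binding.

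Among the cytosolic HSP70 and HSP110 genes, listed with the microsomal HSPA13, 7 of 10 entries rose, 1 fell and 2 did not pass. Of all tested genes 26.7% were higher and 39.0% lower. The summed level of the 10 entries went from 285 ± 5.08 FPKM to 459.5 ± 7.88 FPKM (SD, n = 3). Most of that sum was HSPA8, the constitutive HSP70 of the cytosol. HSPA8 (ENSG00000109971, chr11:123057489-123063230) had 165.5, 169.6 and 171.1 FPKM in sh-NC and 314, 302 and 298 FPKM in sh-CLGN. All sh-CLGN libraries lay above all sh-NC libraries, 1.81-fold in the means (log2 fold change 0.85, SE 0.045, limma adjusted p = 4.79e-06).

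HSPH1 (ENSG00000120694, chr13:31134974-31162388), the HSP110 exchange factor of HSP70, had 10.3, 9.89 and 11.8 FPKM in sh-NC and 21.99, 22.2 and 22.7 FPKM in sh-CLGN. It rose without overlap (log2 fold change 1.00, SE 0.069, adjusted p = 1.28e-05), the largest rise of the members on the log2(FPKM + 1) scale, whereas in mean FPKM that of DNAJB4 was larger (2.38-fold against 2.09-fold). HSPH1 was under the limit of 1 without sh-NC 1 (0.98), without sh-NC 2 (0.96), without sh-CLGN 3 (0.99) and after GC correction (0.82). After that correction HSPA1A, HSPA2, HSPA1B and HSPA8 rose by more. The related HSPA4, also an exchange factor, rose from 51.4 ± 2.98 to 58.4 ± 1.07 FPKM (SD, n = 3, log2 fold change 0.18, adjusted p = 0.017), a call lost without sh-CLGN 1, without sh-CLGN 2 and after GC correction. HSPA4L, the low member of that family, had 1.32, 1.13 and 1.38 FPKM in sh-NC and 0.827, 0.945 and 1.01 FPKM in sh-CLGN. It did not pass (log2 fold change -0.24, adjusted p = 0.0523), although its libraries did not overlap, and it passed as lower after GC correction, after quantile normalization, with voom, without the intensity trend and without sh-NC 2 (-0.47 to -0.24).

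HSPA1A and HSPA1B, the heat-inducible HSP70 genes, are neighbours on chromosome 6 whose coding sequences in the annotation differ at 4 of 1926 bases and whose promoter windows are 92.0% identical. Reads from them are hard to assign, so the split between both is uncertain. HSPA1A had 10.9, 9.35 and 7.86 FPKM in sh-NC and 18.2, 18.9 and 18.4 FPKM in sh-CLGN, and HSPA1B had 5.63, 5.52 and 4.64 FPKM and 9.89, 9.29 and 10.1 FPKM. Both rose without overlap, by 0.92 (SE 0.098, adjusted p = 0.000105) and 0.78 (SE 0.076, adjusted p = 6.34e-05) on the log2 scale. The ratio of HSPA1A to HSPA1B in FPKM was 1.77 ± 0.135 for sh-NC and 1.90 ± 0.116 for sh-CLGN (SD, n = 3) and overlapped between the groups. In sh-NC both were higher in library 1 than in library 3.

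HSPA2, an HSP70 best known from testis, had 5.21, 4.87 and 4.30 FPKM in sh-NC and 9.25, 9.50 and 10.8 FPKM in sh-CLGN. It rose without overlap (log2 fold change 0.91, SE 0.082, adjusted p = 4.73e-05). HSPA13, a microsomal relative of HSP70, rose from 15.2 ± 1.03 to 17.5 ± 0.289 FPKM (SD, n = 3, log2 fold change 0.19, adjusted p = 0.0202), a call lost without sh-CLGN 1, sh-CLGN 2, sh-NC 1 or sh-NC 2 and after GC correction. HSPA14, a ribosome-associated HSP70, had entries that share 460 exonic bases. ENSG00000187522 was at 8.95 and 9.27 FPKM (adjusted p = 0.437) and passed as higher by TPM, by read totals and after quantile normalization, up to 0.22. ENSG00000284024 fell from 9.61 to 8.41 FPKM (log2 fold change -0.17, adjusted p = 0.0319) but was at 0.00 when scaled by read totals. Leaving out any library except sh-NC 2 ended that call.

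**Figure D2:**
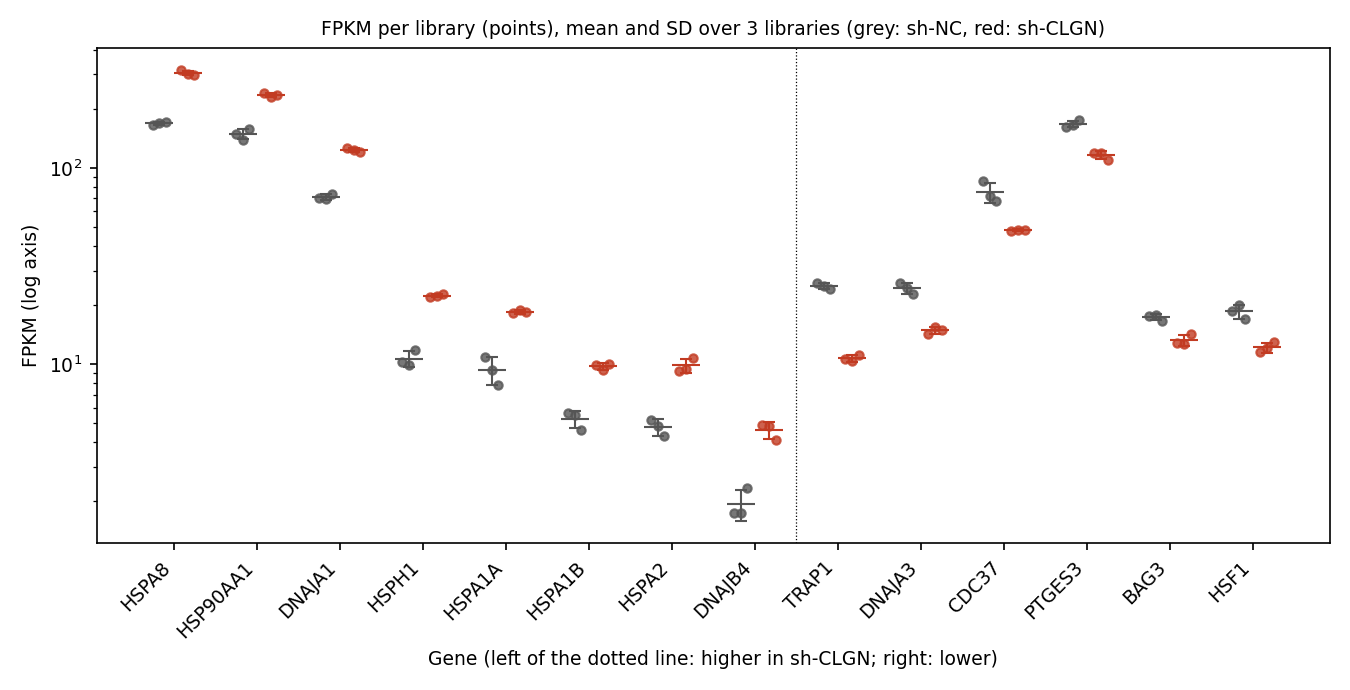
Points are FPKM in each library on a log axis, with horizontal marks for the mean and bars for the SD over 3 libraries, grey for sh-NC and red for sh-CLGN. In each of the 14 genes the groups are separate, with HSPA8 to DNAJB4 higher and TRAP1 to HSF1 lower in sh-CLGN, directions that held under every scaling tried.

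J proteins bring clients to HSP70. Of 5 cytosolic J protein genes 2 rose, none fell and 3 did not pass, beside 26.7% higher and 39.0% lower of all tested genes. DNAJA1, a main partner of HSPA8, had 70.1, 69.3 and 73.6 FPKM in sh-NC and 126, 123 and 121 FPKM in sh-CLGN. It rose without overlap (log2 fold change 0.79, SE 0.046, adjusted p = 6.3e-06), and its ratio to HSPA8 was 0.421 ± 0.011 for sh-NC and 0.405 ± 0.00371 for sh-CLGN (SD, n = 3), with overlapping libraries. DNAJB4 had 1.74, 1.74 and 2.34 FPKM against 4.89, 4.85 and 4.09 FPKM, and rose by 0.94 (SE 0.103, adjusted p = 0.000124). DNAJB1, the J protein gene best known for heat induction, was at 52.3 ± 2.35 and 52.4 ± 1.33 FPKM (SD, n = 3), with a log2 fold change of 0.01 (adjusted p = 0.932). It passed the test as higher after GC correction, TPM scaling, read totals or quantile normalization, with log2 fold changes up to 0.28. DNAJA2 (0.10, adjusted p = 0.108) passed as higher under the same scalings, up to 0.28, but not after GC correction. DNAJB6 (-0.12, adjusted p = 0.069), an inhibitor of aggregation, did not pass.

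HSP90 has an inducible and a constitutive cytosolic gene, and they differed in response. HSP90AA1, the inducible one, had 149, 139.5 and 157.5 FPKM in sh-NC and 241, 229 and 235.5 FPKM in sh-CLGN. It rose without overlap (log2 fold change 0.66, SE 0.056, adjusted p = 3.48e-05). HSP90AB1, the constitutive one and the most abundant member in FPKM, had 551, 542 and 523 FPKM in sh-NC and 518, 522 and 522 FPKM in sh-CLGN. It did not pass (log2 fold change -0.05, adjusted p = 0.388), and the sign was positive after GC correction and under all 3 other scalings, passing as higher by read totals (0.15) and after quantile normalization (0.23). The ratio of HSP90AA1 to HSP90AB1 in FPKM, which does not depend on the scaling of a library, was 0.270, 0.257 and 0.301 for sh-NC and 0.465, 0.439 and 0.451 for sh-CLGN, without overlap.

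Of the 5 HSP90 co-chaperone genes 4 fell, none rose and 1 did not pass, beside 39.0% lower and 26.7% higher of all tested genes. CDC37, which delivers kinases to HSP90, had 85.3, 71.8 and 68.1 FPKM in sh-NC and 47.5, 48.6 and 48.2 FPKM in sh-CLGN. The sh-NC libraries were more spread than the sh-CLGN libraries but did not overlap with them (log2 fold change -0.62, SE 0.080, adjusted p = 0.000274). PTGES3 (p23), which stabilises the closed state of HSP90, had 162, 166 and 175 FPKM against 119, 120 and 110 FPKM, also without overlap (log2 fold change -0.52, SE 0.054, adjusted p = 8.69e-05). STUB1 (CHIP), a ubiquitin ligase of chaperone clients, fell from 14.0 ± 0.794 to 10.3 ± 0.0858 FPKM (SD, n = 3, log2 fold change -0.41, adjusted p = 0.000363), a call lost after GC correction. STUB1 shares 42.4% of its exonic length with JMJD8 on the other strand, which had 1369 reads over the sh-NC libraries and 733 over the sh-CLGN libraries, and without stated strand use the reads of both cannot be told apart. STIP1 (HOP), which links HSP70 to HSP90, fell by 0.26 on the log2 scale (adjusted p = 0.00194), a call lost after GC correction and by read totals, with a value of 0.02 after quantile normalization. AHSA1, an activator of the HSP90 ATPase, did not pass (-0.11, adjusted p = 0.148).

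Among the 5 mitochondrial chaperones none rose, 4 fell and 1 did not pass, beside 26.7% higher and 39.0% lower of all tested genes. The summed level of these 5 was 361.5 ± 10.48 FPKM in sh-NC and 308 ± 11.5 FPKM in sh-CLGN (SD, n = 3). TRAP1 (ENSG00000126602, chr16:3651639-3717597), the mitochondrial HSP90, had 25.8, 25.2 and 24.1 FPKM in sh-NC and 10.7, 10.4 and 11.2 FPKM in sh-CLGN. It fell by the most of all members, to 42.9% of sh-NC, without overlap (log2 fold change -1.15, SE 0.052, adjusted p = 2.52e-06). TRAP1 shares 29.3% of its exonic length with DNASE1 on the other strand, which had 1198 reads over the sh-NC libraries and 1494 over the sh-CLGN libraries. DNAJA3 (Tid1), the J protein of the mitochondrial HSP70, had 25.9, 24.4 and 22.7 FPKM against 14.2, 15.4 and 15.01 FPKM, and fell without overlap (log2 fold change -0.67, SE 0.062, adjusted p = 4.92e-05).

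The other mitochondrial members moved less, and the directions of HSPD1 and HSPA9 were not the same under each scaling. HSPD1 (HSP60) had 201, 205.5 and 220 FPKM in sh-NC and 188, 185 and 171 FPKM in sh-CLGN (log2 fold change -0.20, adjusted p = 0.0148). That call was lost without sh-CLGN 3, without the filter, by TPM and by read totals, and quantile normalization gave 0.12. HSPE1 (HSP10), the lid of HSP60, is transcribed away from HSPD1 from overlapping promoter windows, and had 28.7, 25.9 and 28.6 FPKM against 34.3, 30.4 and 29.3 FPKM (log2 fold change 0.17, adjusted p = 0.0689). It was positive under all alternatives and passed as higher after GC correction (0.21), by TPM (0.30), by read totals (0.36), after quantile normalization (0.43) and without sh-CLGN 3 (0.21). The ratio of HSPD1 to HSPE1 in FPKM was 7.54 ± 0.466 for sh-NC and 5.81 ± 0.312 for sh-CLGN (SD, n = 3), without overlap. HSPE1 shares 14.2% of its exonic length with HSPD1 on the other strand. Without stated strand use the reads of both cannot be told apart there. HSPA9 (mortalin), the mitochondrial HSP70, fell from 75.4 ± 2.46 to 69.5 ± 0.799 FPKM (log2 fold change -0.12, adjusted p = 0.0494), a call lost under 11 of the 15 alternatives, with 0.18 after quantile normalization. Genes encoded in mitochondria took 3.25% to 4.02% of sh-NC reads and 5.49% to 5.80% of sh-CLGN reads, and their part in these values was not tested.

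The CCT chaperonin takes 1 copy of each subunit into a ring, but its 8 genes did not move together. At adjusted p 6 fell, CCT6A rose and CCT8 did not pass, beside 39.0% lower and 26.7% higher of all tested genes. The summed level of the subunits went from 942 ± 13.99 to 816 ± 21.9 FPKM (SD, n = 3). Quantile normalization left only CCT7 lower and made CCT3, CCT6A and CCT8 higher, and scaling by read totals left CCT4, CCT5 and CCT7 lower and made CCT6A and CCT8 higher. CCT7 (ENSG00000135624, chr2:73233420-73253021) had 182, 187 and 179.5 FPKM in sh-NC and 103, 103.5 and 99.4 FPKM in sh-CLGN. It fell without overlap to 55.8% of sh-NC (log2 fold change -0.84, SE 0.044, adjusted p = 4.62e-06). CCT6A had 109.6, 107 and 116 FPKM in sh-NC and 162.5, 163 and 157 FPKM in sh-CLGN, and rose without overlap (log2 fold change 0.53, SE 0.047, adjusted p = 4.28e-05). The ratio of CCT6A to CCT7 in FPKM was 0.601, 0.573 and 0.645 for sh-NC and 1.57, 1.57 and 1.58 for sh-CLGN, so the order of these subunits changed in every library.

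CCT5 had 50.9, 53.0 and 53.0 FPKM in sh-NC and 41.4, 38.7 and 38.7 FPKM in sh-CLGN (log2 fold change -0.39, adjusted p = 0.000217), and 30.1% of its exonic length is shared with an antisense gene that had 2 reads over the sh-NC libraries and 0 over the others. CCT4 had 156.5, 166.5 and 164 FPKM against 133.5, 125 and 122 FPKM (log2 fold change -0.35, adjusted p = 0.000544). Both calls were lost after quantile normalization. CCT2 had 98.4, 101 and 107 FPKM against 87.2, 80.8 and 79.1 FPKM (log2 fold change -0.31, adjusted p = 0.00163), a call lost after quantile normalization and by read totals. TCP1 had 77.0, 84.2 and 82.9 FPKM against 72.1, 66.5 and 66.6 FPKM (-0.25, adjusted p = 0.00495), a call lost by TPM, by read totals and after quantile normalization. CCT3 had 176, 175 and 167 FPKM against 159.6, 156.3 and 156.2 FPKM (-0.13, adjusted p = 0.0284). The groups of these subunits did not overlap. After quantile normalization TCP1 was at 0.04 and CCT3 at 0.19, and the CCT3 call was lost under 12 of the 15 alternatives. CCT8 had 75.3, 74.6 and 81.2 FPKM in sh-NC and 79.2, 81.4 and 75.3 FPKM in sh-CLGN, which overlap (log2 fold change 0.03, adjusted p = 0.652). It passed as lower after GC correction (-0.10) and as higher by read totals (0.22) and after quantile normalization (0.33).

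**Figure D3:**
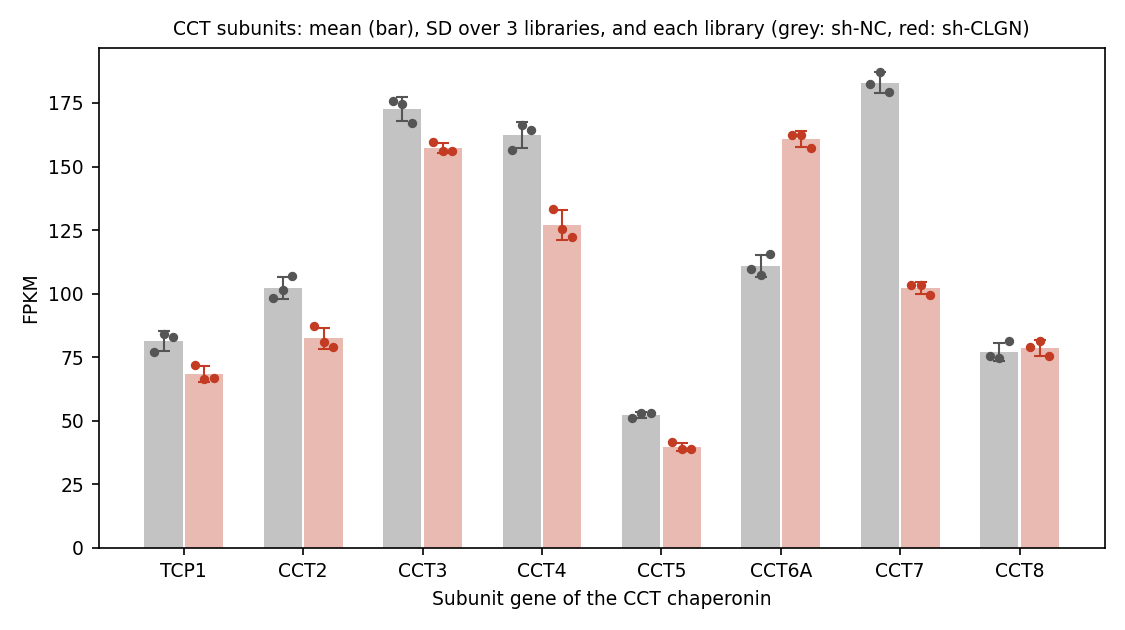
Bars are mean FPKM of each CCT subunit gene, error bars the SD over 3 libraries and points the libraries, grey for sh-NC and red for sh-CLGN. CCT7 is the highest subunit in sh-NC at 183 FPKM and CCT6A the highest in sh-CLGN at 161 FPKM, while CCT8 overlaps. After quantile normalization the log2 fold changes of TCP1 and CCT3 turn positive, that of CCT3 passing as higher and that of TCP1 not passing. By read totals that of CCT3 is also positive but does not pass.

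No small heat shock protein gene passed the test on the FPKM scale, whereas 2 of 3 were higher by TPM and 3 of 3 by read totals. Of all tested genes 32.8% were higher by TPM and 37.9% by read totals. HSPB1 (HSP27), a holdase that keeps unfolded proteins soluble, had 130.3, 113 and 90.7 FPKM in sh-NC and 130.1, 128 and 147 FPKM in sh-CLGN. The sh-NC libraries spread widely and sh-NC 1 overlapped with sh-CLGN (log2 fold change 0.29, SE 0.123, adjusted p = 0.0687). Without sh-NC 1 the value was 0.41 and passed, as it did with voom, after GC correction and under the other scalings, up to 0.59. HSPB8, the partner of BAG3, was at 6.96 and 7.32 FPKM (adjusted p = 0.473) and passed by read totals (0.23). HSPB11, a protein of intraflagellar transport, was at 4.19 and 4.63 FPKM (adjusted p = 0.164), passed by TPM (0.26) and read totals (0.28), and was at -0.18 after GC correction.

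BAG3, which couples HSP70 to autophagy and is itself induced by heat, had 17.7, 17.8 and 16.7 FPKM in sh-NC and 12.8, 12.7 and 14.3 FPKM in sh-CLGN. It fell without overlap (log2 fold change -0.37, SE 0.060, adjusted p = 0.001), and its ratio to HSPA8 in FPKM went from 0.103 ± 0.005 to 0.0436 ± 0.00387 (SD, n = 3). BAG1, an exchange factor of HSP70, was at 4.56 and 4.32 FPKM (adjusted p = 0.481). HSF1, the main heat shock transcription factor, had 18.6, 20.1 and 17.1 FPKM in sh-NC and 11.5, 12.1 and 12.9 FPKM in sh-CLGN. Its transcript fell without overlap (log2 fold change -0.57, SE 0.071, adjusted p = 0.000242). HSF2, its relative, was at 7.43 and 6.99 FPKM (adjusted p = 0.41), and its sign was positive by TPM, read totals and quantile normalization. RNA levels do not show the activity of either factor.

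The GC content of a transcript went with its change. Spearman's rho between GC content and log2 fold change was -0.319 over 13068 tested genes and -0.319 over the 42 members, a description in which all genes share the same 6 libraries. Over the members it was 0.03 after the GC trend of each library was removed. That correction takes out the trend over all tested genes, with any group difference that follows GC content. A value near 0 is therefore no separate finding about the members. Within sh-NC, library 3 differed from the other two with a rho of -0.635 over tested genes. Members that rose had a median GC content of 42.0% and those that fell one of 49.0%. HSPA1A (59.3%), HSPA1B (58.7%) and HSPA2 (56.1%) rose at high GC content, and their log2 fold changes after GC correction were 1.17, 1.02 and 1.12. PTGES3 fell at 41.8%. TRAP1 was at -0.92 and CCT7 at -0.67 after the correction.

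**Figure D4:**
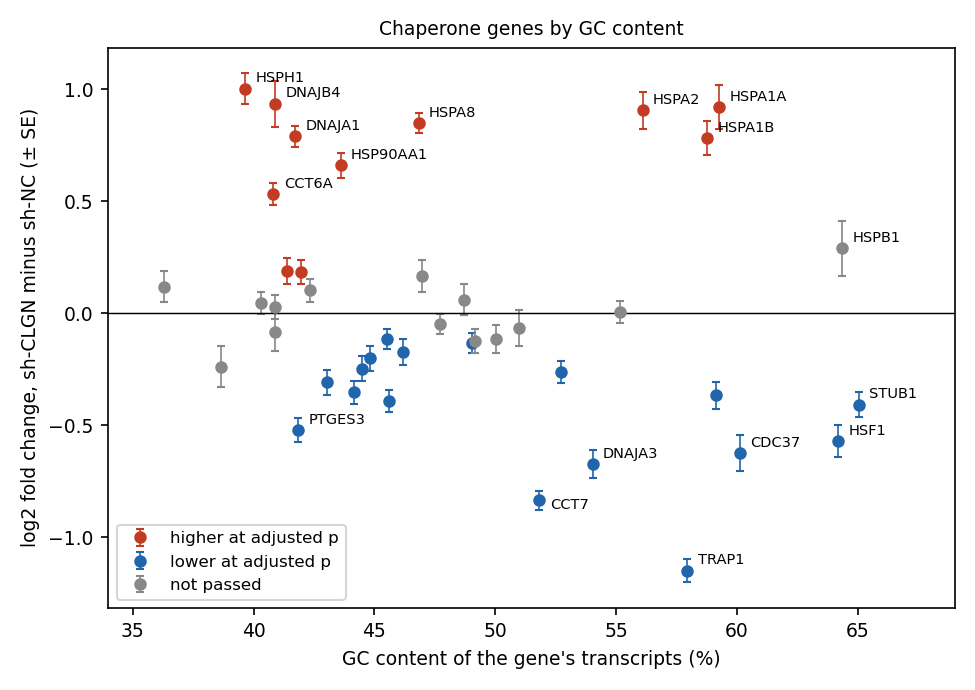
Each point is a chaperone gene, with the GC content of its transcripts in percent on the x axis and its log2 fold change with SE on the y axis, red for higher, blue for lower and grey for not passed. TRAP1, CDC37, HSF1 and STUB1 lie low at 57.9% to 65.0% GC, HSPH1, DNAJB4 and DNAJA1 high at 39.7% to 41.7%, and HSPA1A, HSPA1B and HSPA2 stand apart as high at 56.1% to 59.3%. The STUB1 call was lost after GC correction.

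**Figure D5:**
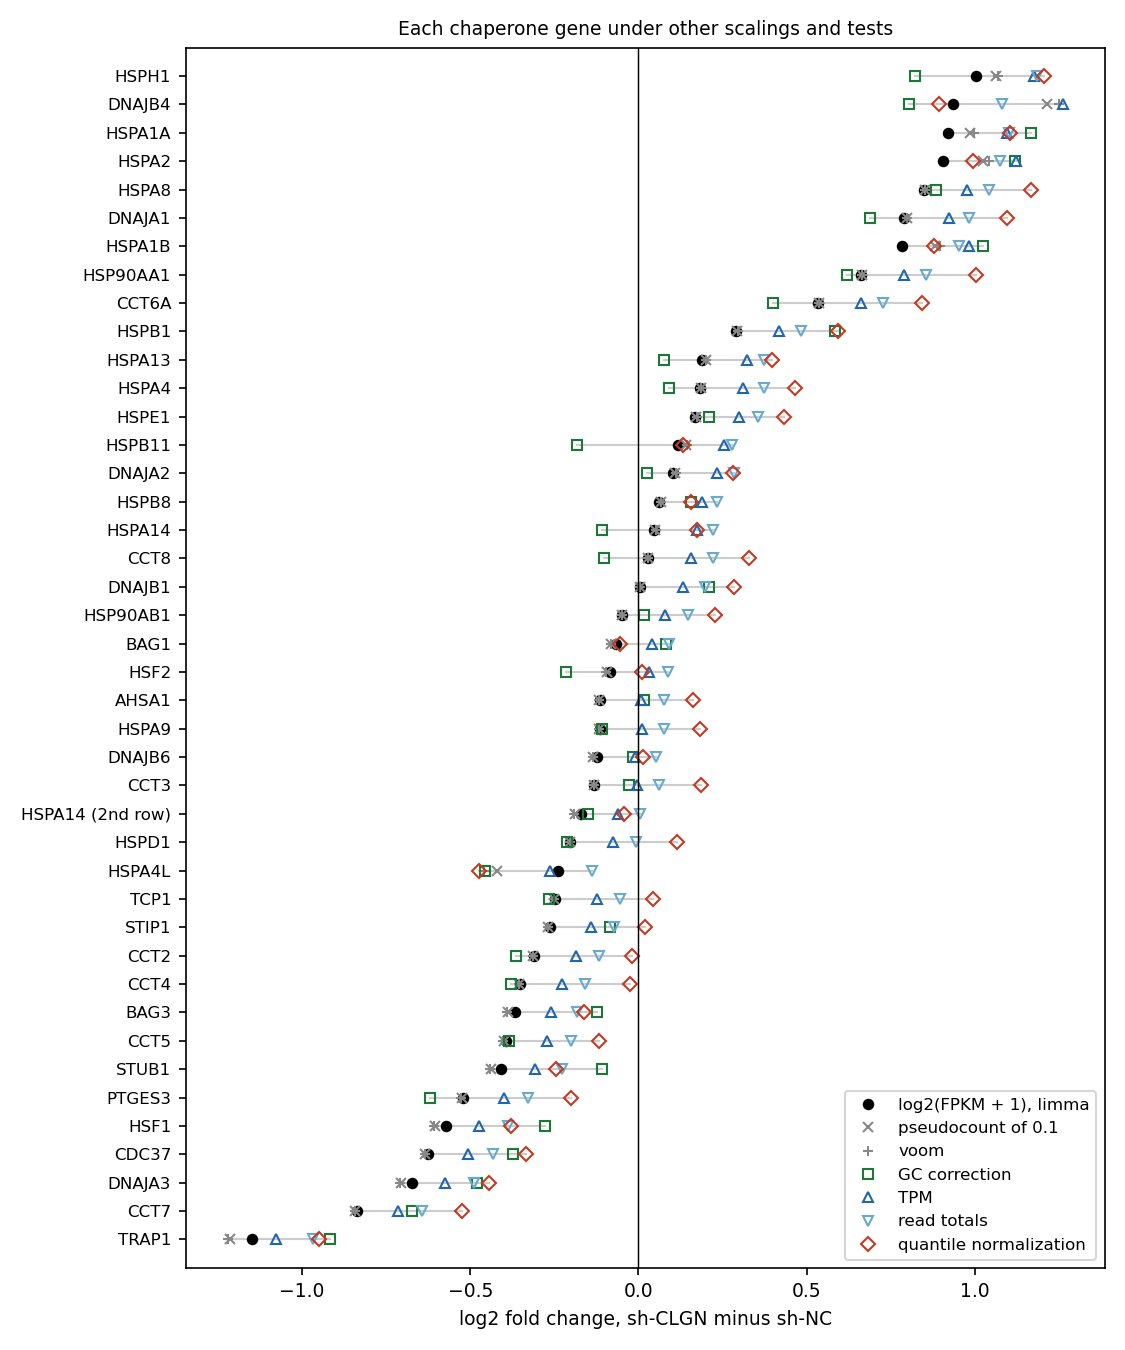
Each line of symbols is a chaperone gene with its log2 fold change in the reported fit (filled circles) and under 6 other settings. The top 9 genes, HSPH1 to CCT6A, stay above 0 and the bottom 6, PTGES3 to TRAP1, below 0 in all settings shown. Genes with changes near 0 cross it under quantile normalization, read totals, GC correction or TPM.

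Partner genes outside the 41 were counted in 5 lists beside the same 26.7% higher and 39.0% lower of all tested genes. Of 16 tested HSP70 partners 4 were higher and 9 lower (median log2 fold change -0.19). DNAJC13, a J protein of endosomes, rose from 7.38 to 17.7 FPKM (1.16, adjusted p = 1.11e-05). DNAJC5, the J protein of synaptic vesicles, fell from 42.0 to 19.4 FPKM (-1.07, adjusted p = 7.08e-06), and SGTA (-0.52) and DNAJC7 (-0.45) were also lower. HSPA6, a strictly heat-induced HSP70, was not tested, with 0.193 and 0.28 FPKM. Of 9 tested HSP90 partners 4 were higher and 3 lower (median 0.00). FKBP5, a glucocorticoid-responsive immunophilin (-0.60), and UNC45A, a myosin chaperone (-0.57), fell, and CHORDC1 (0.50) and SUGT1 (0.41) rose.

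Of 15 tested prefoldin, phosducin-like and tubulin cofactor genes, which work with CCT, 3 were higher and 5 lower (median -0.06). PFDN1, a prefoldin subunit, rose from 18.2 to 31.2 FPKM (0.75, adjusted p = 1.03e-05) and PDCL3, a CCT cofactor, by 0.44, while the tubulin cofactors TBCD (-0.45) and TBCA (-0.38) fell. Of 14 tested mitochondrial import, folding and protease partners 3 were higher and 7 lower (median -0.25). HTRA2, a protease of the intermembrane space, rose from 6.03 to 9.46 FPKM (0.57, adjusted p = 5.7e-05), and HSCB (-0.54), DNAJC19 (-0.50) and GRPEL2 (-0.44), which are co-chaperones of mitochondrial HSP70, fell. Of 6 tested other textbook HSF1 targets 3 were higher and 1 lower (median 0.12): SERPINH1 (0.23), CHORDC1 and FKBP4 (0.13) rose and IER5 (-0.52) fell. The genes named here kept their sign under every alternative that used all libraries.

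The 18 genes listed as ER chaperones, the class CLGN belongs to, are given beside the cytosolic and mitochondrial ones (median log2 fold change -0.16). Of these 4 were higher (22.2%) and 10 lower (55.6%), beside 26.7% and 39.0% of all tested genes. DNAJB9, an ER J protein, rose from 8.46 to 26.1 FPKM (log2 fold change 1.52, adjusted p = 1.69e-06), and the disulfide isomerases PDIA4 (-1.26), PDIA3 (-0.68) and P4HB (-0.64) fell. The ratio of HSPA8 to HSPA5, the HSP70 genes of cytosol and ER, was 0.556, 0.525 and 0.564 for sh-NC and 1.14, 1.10 and 1.08 for sh-CLGN in FPKM. The libraries did not overlap, and HSPA8 became the more abundant of both. No test of a difference between these lists was run.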

How the data were processed

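Sequencing libraries were made from total RNA with a NEBNext Ultra kit, and the values used here are FPKM, which the authors deposited for each gene in each library. The submitters' processing notes name HISAT2 2.0.5, featureCounts and GRCh38, while the annotation release and strand setting are not given in the sources used here. Gene positions equalled those of GENCODE 29. Multiplied by gene length, 100% of values were whole multiples of a read (within 0.01), so reads per gene could be recovered. The deposited FPKM had been divided by sizes that were 0.933 to 0.953 of the summed reads for sh-NC libraries and 1.07 to 1.08 for sh-CLGN libraries, so a scaling beyond depth was already in them. Reads carried no molecular identifiers, so amplification duplicates among the counted reads cannot be told apart from separate molecules.

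Column names gave each sample, KD being sh-CLGN. Genes reaching 1 FPKM in 3 or more libraries were compared between groups with limma 3.58.1 (R 4.3.3), two-sided, on log2(FPKM + 1) with eBayes and an intensity trend, and p-values were Benjamini-Hochberg adjusted over all 13074 genes. The pseudocount of 1 understates changes of low genes. The script was tested on simulated data. Alternatives were a pseudocount of 0.1, no filter, TPM, read totals, quantile normalization, removal of a GC trend, voom on the recovered reads, no intensity trend, a replicate block, and each library left out. HSPA1A and HSPA1B were also summed, an alternative chosen after seeing the data.

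All members may be named, with values in every library for CCT subunits, members past both thresholds and the largest change in each role, and further members were added after their values were seen. In each partner list up to 4 passing genes with the largest change are named, and HSPA6 and HSPA5 were named in addition. The members and all gene lists were chosen with earlier results of these data known.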

Additional observations from a re-analysis of the deposited data

How the results depend on the processing

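Under the alternatives that used all libraries, CLGN stayed lower (log2 fold change -1.54 to -1.12, and -1.39 to -1.24 with a library left out). The number of higher members was 17 with TPM, 20 with quantile normalization and 20 with read totals, in place of 11, and that of lower members was 9 with quantile normalization and 10 with read totals, in place of 17. The members past both thresholds, 2 as reported, were 5 with TPM, quantile normalization or read totals and 4 with a pseudocount of 0.1 or voom, and not the same genes: TRAP1 was not among them with quantile normalization or read totals. Their median log2 fold change was 0.036 with TPM, 0.16 with quantile normalization and 0.090 with read totals, in place of -0.08. With a library left out 9 to 12 members were higher (21.4% to 28.6%) and 13 to 16 lower (31.0% to 38.1%). Of all tested genes 20.5% to 28% were higher and 36.1% to 39.5% lower in these fits. From 1 to 3 members were past both thresholds, the 1 being without sh-NC 2, and the median of the members was -0.12 to -0.04. The share of all tested genes past both thresholds was counted only for the reported fit (6.28%).

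Directions turned for 14 members in all-library alternatives, all with small changes. With GC correction HSPA14 (ENSG00000187522) was at -0.11, HSP90AB1 at 0.016, AHSA1 at 0.016, HSPB11 at -0.18, BAG1 at 0.082 and CCT8 at -0.10. With TPM HSPA9 was at 0.010, HSP90AB1 at 0.079, AHSA1 at 0.0089, BAG1 at 0.041 and HSF2 at 0.030. With quantile normalization HSPA9 was at 0.18, HSPD1 at 0.12, HSP90AB1 at 0.23, STIP1 at 0.018, AHSA1 at 0.16, DNAJB6 at 0.013, HSF2 at 0.011, TCP1 at 0.043 and CCT3 at 0.19. With read totals HSPA14 (ENSG00000284024) was at 0.0036, HSPA9 at 0.077, HSP90AB1 at 0.15, AHSA1 at 0.075, DNAJB6 at 0.053, BAG1 at 0.092, HSF2 at 0.088 and CCT3 at 0.062. With a library left out DNAJB1 ranged from -0.024 to 0.039, HSPB8 from -0.0037 to 0.12 and HSF2 from -0.14 to 0.0083. The cause was not tested.

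Deviations of same-numbered libraries from their group means correlated at -0.018, -0.046 and -0.15, so the shared replicate numbers were not taken as pairs. With the replicate block 11 members were higher (26.2%) and 14 lower (33.3%), beside 25.1% and 36.4% of all tested genes. The calls of HSPA14 (ENSG00000284024), HSPA9 and CCT3 were lost. HSPA1A and HSPA1B summed kept the call. DNAJB4, with as few as 92 reads in a library, had the lowest depth of the members.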
